A study of Mus musculus with 10 samples.

Results

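The 38 genes described here encode surface receptors, signalling proteins, effector proteins and transcription factors by which T cells, natural killer (NK) cells and B cells are recognised. They were taken by symbol, and 38 of 38 had a row among the 30431 rows of each table. RNA was sequenced from whole kidneys of 10 mice, each 21 days old. The groups were 4 wild-type mice (WT), 3 mice with the genotype Pkhd1Cre; Pkd2 F/F (SM) and 3 mice with the genotype Pkhd1Cre; Pkd2 F/F; miR-21null (DM). Cre from the Pkhd1 driver, which is active in the collecting duct, removes floxed Pkd2 there, and loss of this polycystin gene causes cystic kidneys. The SM and DM mice share the Cre driver and the floxed Pkd2 alleles, and the labels leave unsaid whether the wild-type mice carried either. Each library carries an animal number of its own.

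T cells recognise antigen through a receptor that signals by way of the CD3 proteins, the kinases Lck and Zap70 and the adaptor Lat. Cytotoxic T cells and NK cells kill target cells with perforin and granzymes held in granules, and both release interferon-gamma. B cells carry surface immunoglobulin coupled to CD79a and CD79b. In kidneys with cysts, lymphocytes are known to gather in the tissue between tubules together with macrophages. In bulk tissue a larger number of cells of a type and more RNA per cell cannot be told apart.

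Every log2 fold change, p and adjusted p below is that of the authors' deposited table of the comparison, made with edgeR's likelihood ratio test and adjusted by the Benjamini-Hochberg method over 30431 rows. A gene is said to have risen where its adjusted p per the authors' deposited table was below 0.05. The tables hold no value per library, so whether the libraries of the groups overlap cannot be given and the depth is unknown. A level is in CPM, the count scaled to library size, computed for each group from the average and the fold changes per the authors' deposited tables. The error of a log2 fold change is the standard error implied by the test statistic (SE), and a 95% interval runs 1.96 SE to each side. The targeted gene Pkd2 stood at 239 CPM in WT, 180 in SM and 170 in DM, which did not pass per the authors' deposited tables (adjusted p = 0.179 and 0.0838). The row named Mir21 lay at the lowest level in the tables and checks nothing.

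The microRNA removed in DM, miR-21a-5p, lies at chr11:86584120-86584141 on the minus strand (RefSeq, GRCm38.p6). It is shown because its seed, bases 2 to 8 in capitals, defines the sites that were searched in the lymphocyte genes.
miR-21a-5p: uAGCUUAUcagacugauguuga
A match to the whole seed, ATAAGCT, was present in the longest annotated 3′ UTR of 3 of the 38 lymphocyte genes (7.89%) and in 1417 of 18912 genes in all (7.49%). These are the sites, in capitals, with their neighbouring bases in the sense of the transcript.
Fasl: aggctcatttgactgATAAGCTagag
Klrk1, first site: ataatataatcccaaATAAGCTgaga
Klrk1, other site: attcccccaaaggctATAAGCTtata
Ms4a1: tgcccatatgcctgtATAAGCTatat
The Fasl site covers bases 441 to 447 of an 887-base 3′ UTR. The Klrk1 sites begin at bases 1401 and 1939 of 2463, and the Ms4a1 site at base 963 of 1990. Fasl encodes a death ligand, Klrk1 the activating receptor NKG2D and Ms4a1 the B cell protein CD20. In the authors' deposited table of DM versus SM, where miR-21 is the labelled difference, their log2 fold changes were 1.85 (SE 1.03), 1.37 (SE 0.81) and 0.55 (SE 0.61), each with an adjusted p of 1. The remaining 35 genes hold no such match in that window, and a match is a description of letters only.

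The lymphocyte genes were scarce in these kidneys. Only 7 of the 38 averaged at least 1 CPM over the 10 libraries, namely Cd4, Cd8a, Il2rb, Il2rg, Lck, Cd79a and Cd79b, and 31 averaged less. The averages nearest to that level were 0.14 on the log2 CPM scale for Cd79a and -0.05 for Gzmb. The lowest level that the tables give to a row is 0.0514 CPM. Computed group levels fell below it for Cd8b1 in WT and for Gzmk and Ifng in SM, and the fold changes against those groups depend on the fit near the floor. Per kilobase of exon, the scale on which genes can be compared, Il2rg ranked highest in each group, at 2.31 CPM per kb in WT and 2.50 in SM. Il2rg encodes the common gamma chain shared by several cytokine receptors, and 728 of its exon bases are shared with an overlapping gene model on the same strand. Gzmb ranked 21st per kilobase in WT (0.0806 CPM per kb), 21st in SM (0.11) and 2nd in DM (2.02), with Gzma 3rd in DM at 2.01 CPM per kb.

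**Figure D1:**
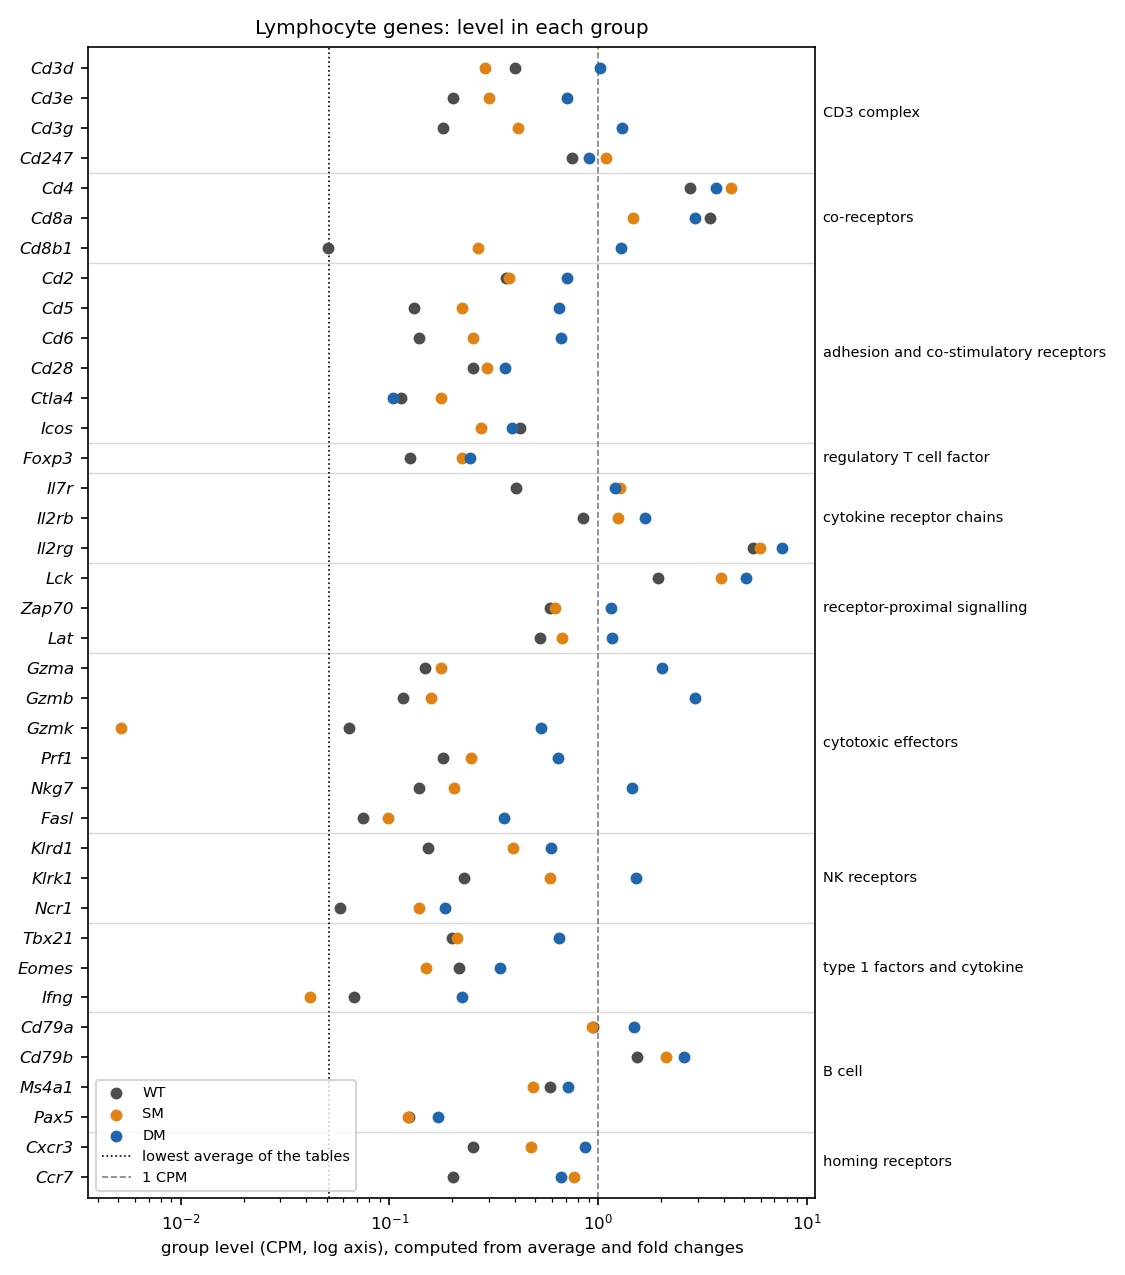
Level of each lymphocyte gene in WT (4 libraries), SM (3) and DM (3), in CPM on a log axis, grouped by role; the points are computed group levels and the tables give no libraries. The granule genes Gzma, Gzmb and Nkg7 lie near 0.1 to 0.2 CPM in WT and SM and above 1 CPM in DM.

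In SM versus WT 3 of the 38 genes rose and 0 fell per the authors' deposited table. That is 7.89% higher, beside 7.87% of all 30431 rows higher and 6.09% lower, so the share of genes that rose was near the background. At an unadjusted p below 0.05, 4 were higher and 2 lower, beside 11.9% and 11.5% of all rows. In DM versus WT 12 of 38 rose (31.6%) and 0 fell, beside 7.55% of all rows higher and 5.92% lower. Among the 31 genes averaging below 1 CPM, 11 rose (35.5%), beside 3.84% of all rows below that level. At an unadjusted p below 0.05, 22 were higher and 0 lower in DM than in WT, beside 11.7% of all rows higher. In DM versus SM 0 of 38 passed per the authors' deposited table, where 0.0789% of all rows did, and the lowest adjusted p among the 38 was 0.12, for Gzmb. At an unadjusted p below 0.05, 9 of 38 were higher in DM than in SM and 0 lower, beside 1.87% of all rows higher and 1.88% lower. These 9 were all among the 31 genes averaging below 1 CPM, where 316 of 15296 rows were higher. Of the 7 genes averaging at least 1 CPM, 0 were higher, beside 253 of 15135 rows. A positive log2 fold change was found for 29, 35 and 33 of the 38 genes in the 3 comparisons, beside 41%, 41.9% and 43.9% of all rows, many of which stand at exactly 0. The median log2 fold change of the 38 genes was 0.46 in SM versus WT, 1.50 in DM versus WT and 0.87 in DM versus SM, beside a median of 0 over all rows in each comparison. These comparisons share their groups and are not independent of each other.

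The likelihood ratio test takes no account of the error in the estimated spread. With a t distribution on 7 residual degrees of freedom in its place, 0 of 38 passed in each comparison, beside 2.24% of all rows in SM versus WT, 1.48% in DM versus WT and 0% in DM versus SM, with a lowest adjusted p among the 38 of 0.118 in SM versus WT and 0.0703 in DM versus WT. By the deposited calls, 14% of all rows passed in SM versus WT and 13.5% in DM versus WT. The t distribution treats the spread of each row as estimated from its own libraries alone. How the authors estimated the spread is not given, so this alternative may be too strict. The median log2 fold change in DM versus WT was 0.66 among the 7 genes averaging at least 1 CPM and 1.71 among the 31 genes below.

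**Figure D2:**
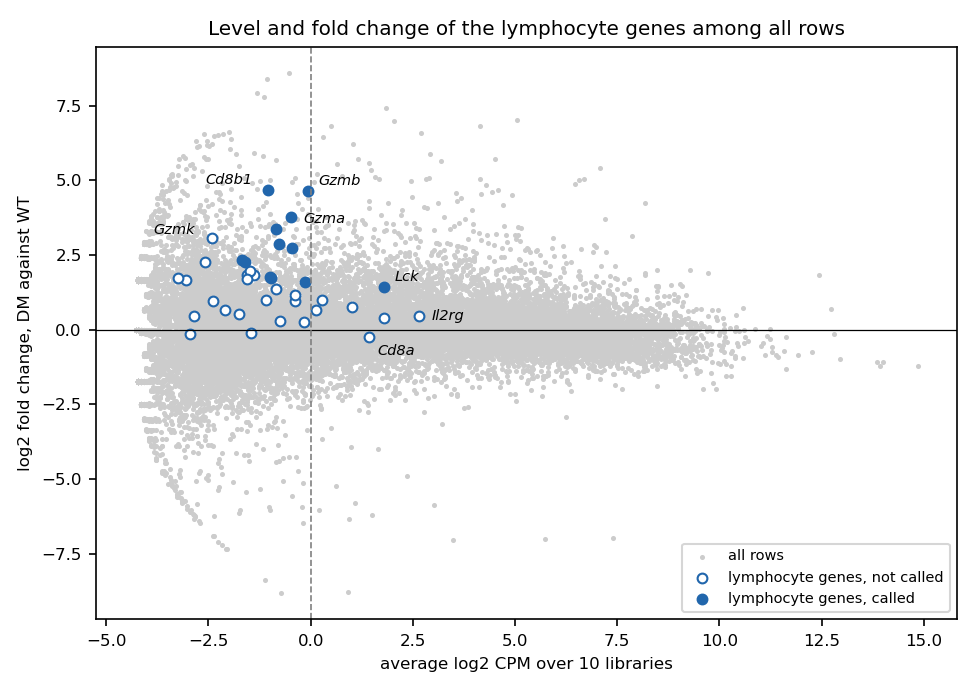
Log2 fold change of DM versus WT per the authors' deposited table (y) against the average log2 CPM over 10 libraries (x), for all rows in grey and the lymphocyte genes in blue, filled where called. Of the 12 called genes, 11 lie left of the dashed line at 1 CPM, and Lck lies to its right.

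Cytotoxic effector genes had the largest median log2 fold change of the roles in DM versus WT, 3.22. The 6 genes of this role summed to 0.723 CPM in WT, 0.886 in SM and 7.89 in DM. These levels depend on how the deposited average is read: as a mean of log2 values it gives levels 2.1 times as high for Gzma, 2.89 times for Gzmb, 3.28 times for Gzmk and 1.75 times for Nkg7, alike in the 3 groups. Gzmb, which encodes granzyme B, a protease that triggers death of the target cell, stood at 0.116 CPM in WT, 0.157 in SM and 2.90 in DM. In the authors' deposited tables this was a log2 fold change of 4.65 (SE 1.01, adjusted p = 1.22e-04) in DM versus WT and 4.20 (SE 1.11, p = 1.5e-04, adjusted p = 0.12) in DM versus SM. In SM versus WT the log2 fold change of this gene was 0.44 (SE 1.02) per the authors' deposited table. Its interval ran from -1.55 to 2.44, so a difference of either sign is not excluded.

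Gzma, which encodes granzyme A, stood at 0.149 CPM in WT, 0.176 in SM and 2.02 in DM. It rose by 3.77 (SE 1.03, adjusted p = 0.00365) on the log2 scale in DM versus WT per the authors' deposited table, and was 3.52 higher than in SM (SE 1.14, adjusted p = 0.503). Nkg7, a protein of the granule membrane, stood at 0.139, 0.204 and 1.45 CPM and rose by 3.38 (SE 0.92, adjusted p = 0.00352) in DM versus WT per the authors' deposited table. These 3 genes rose in DM versus WT, and none of them passed in SM versus WT or in DM versus SM.

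The other 3 granule and death ligand genes had higher levels in DM without passing. Prf1, which encodes perforin, the pore-forming protein, stood at 0.181 CPM in WT, 0.245 in SM and 0.644 in DM (DM versus WT 1.83, SE 0.78, adjusted p = 0.107 per the authors' deposited table). Fasl stood at 0.0744, 0.0984 and 0.354 CPM (2.25, SE 0.95, adjusted p = 0.106 per the authors' deposited table). Gzmk, which encodes granzyme K, was computed at 0.0639 CPM in WT, below the floor in SM and at 0.531 CPM in DM. Its log2 fold change of 6.67 (SE 1.78, adjusted p = 0.134) in DM versus SM per the authors' deposited table is set against a group at the floor and gives no usable size.

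The genes for granzymes A and K lie 70.6 kb apart on chromosome 13, at 113093825 to 113100981 and 113171608 to 113225908, and Gzmb lies on chromosome 14 at 56258838 to 56262260, all on the minus strand (GRCm38, GENCODE M21). The 250 bases before the RefSeq start of Gzma and Gzmb are shown because these genes had the highest levels per kilobase of the granule genes in DM. Capitals mark the RUNX word TGTGGTTT and the NFAT word TGGAAA, searched on both strands.
Gzma promoter, chr13:113100982-113101231, minus strand: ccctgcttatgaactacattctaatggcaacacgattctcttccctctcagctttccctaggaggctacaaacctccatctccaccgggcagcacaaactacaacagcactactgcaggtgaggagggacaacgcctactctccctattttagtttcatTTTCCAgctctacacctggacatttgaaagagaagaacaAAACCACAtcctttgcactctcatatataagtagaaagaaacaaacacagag
Gzmb promoter, chr14:56262335-56262584, minus strand: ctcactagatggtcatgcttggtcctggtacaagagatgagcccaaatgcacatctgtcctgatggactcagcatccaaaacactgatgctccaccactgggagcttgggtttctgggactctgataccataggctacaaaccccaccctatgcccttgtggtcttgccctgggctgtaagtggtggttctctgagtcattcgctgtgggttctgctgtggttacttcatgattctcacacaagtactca
The Gzma window holds both words and the Gzmb window neither. Among the 27 lymphocyte genes with a RefSeq promoter, the RUNX word occurred in 1 (3.7%, beside 1.5% of 16319 promoters) and the NFAT word in 8 (29.6%, beside 19.6%). The T-box word AGGTGTGA occurred in 1, Nkg7 (3.7%, beside 1.17%), and the ETS word CCGGAAGT in 0 (beside 4.31%). The interferon-gamma activated word TTCNNNGAA occurred in 5, Cd3d, Foxp3, Ifng, Il7r and Nkg7 (18.5%, beside 7.82%). These shares describe letters in the windows and no binding was measured.

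**Figure D3:**
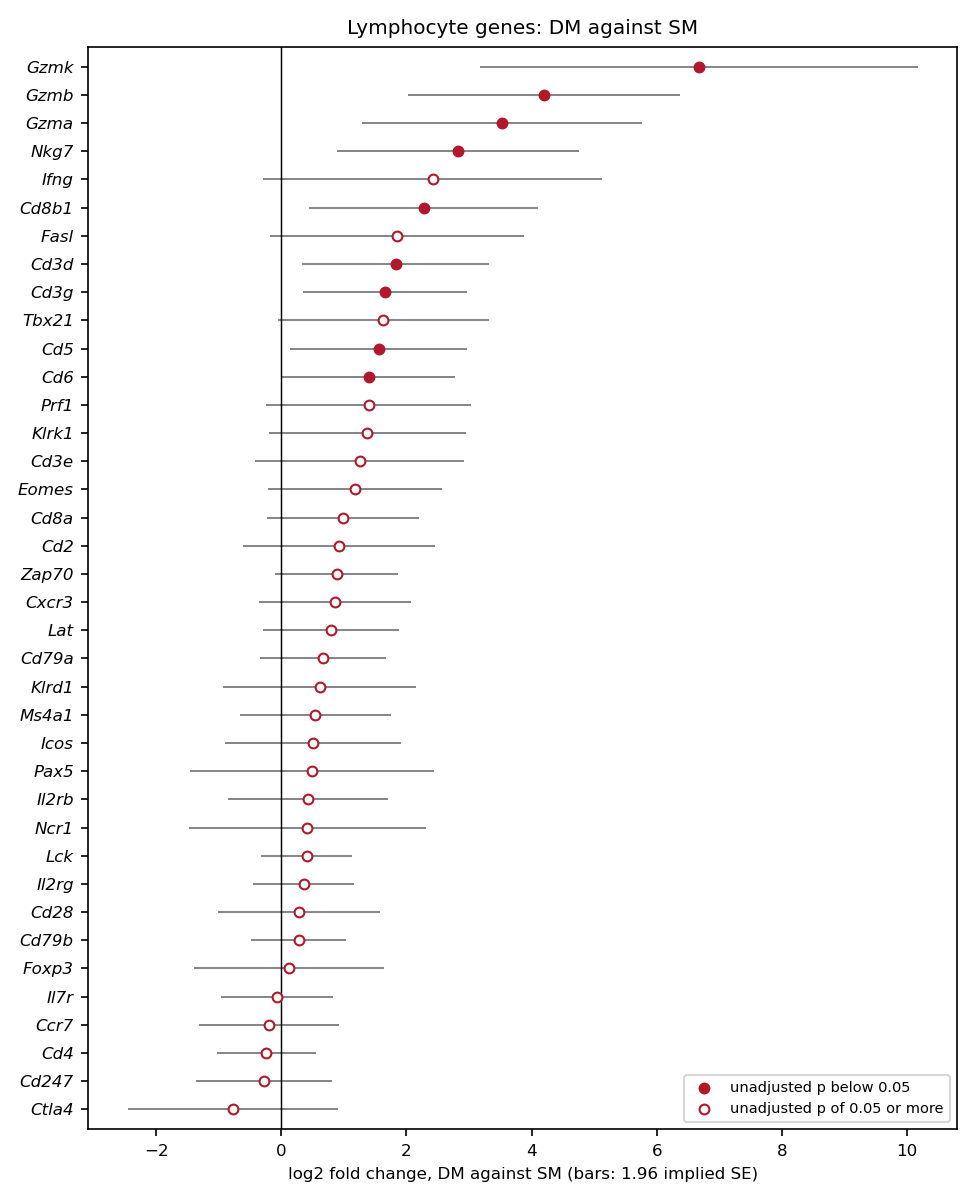
Log2 fold change of DM versus SM for the 38 lymphocyte genes per the authors' deposited table, with bars of 1.96 implied SE. The 9 genes whose bars lie above 0 include Gzma, Gzmb, Gzmk and Nkg7, and none of the 38 passed at an adjusted p below 0.05.

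Of the 4 chains of the CD3 complex, 1 passed in DM versus WT. Cd3g stood at 0.18 CPM in WT, 0.414 in SM and 1.30 in DM, and rose by 2.85 (SE 0.65, adjusted p = 2.81e-04) on the log2 scale in DM versus WT per the authors' deposited table. Cd3d stood at 0.399, 0.287 and 1.02 CPM (DM versus WT 1.35, SE 0.68, adjusted p = 0.202 per the authors' deposited table). Cd3e stood at 0.202, 0.298 and 0.710 CPM (1.81, SE 0.79, adjusted p = 0.116 per the authors' deposited table). These 3 chains lie side by side on chromosome 9, with gaps of 1.4 and 11.4 kb, and each had its highest level in DM. Cd247, which encodes the zeta chain, lies on chromosome 1 and stood at 0.747, 1.09 and 0.902 CPM (0.27, SE 0.52 in DM versus WT per the authors' deposited table). It shares 3213 exon bases with other gene models, Pou2f1 on the opposite strand among them, and the labels leave unsaid whether counting used strand.

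Of the co-receptors, Cd8b1 rose and Cd8a and Cd4 did not. Cd8b1, the beta chain of CD8 on cytotoxic T cells, was below the floor in WT and stood at 0.266 CPM in SM and 1.29 in DM. Its log2 fold change of 4.67 (SE 0.97, adjusted p = 5.62e-05) in DM versus WT per the authors' deposited table had the lowest p of the 38 genes, but is set against a group at the floor. Against SM it was 2.27 (SE 0.93, p = 0.0145, adjusted p = 1) per the authors' deposited table. Cd8a, the alpha chain, which some dendritic cells carry as well, stood at 3.43 CPM in WT, 1.47 in SM and 2.91 in DM. Its values were -1.22 (SE 0.59, adjusted p = 0.179) in SM versus WT and -0.24 (SE 0.57) in DM versus WT per the authors' deposited tables. The gene pair lies 35.9 kb apart on chromosome 6, and the levels of the 2 chains were not in the same order across the groups. Cd4, the co-receptor of helper T cells, stood at 2.77, 4.31 and 3.66 CPM (0.40, SE 0.38 in DM versus WT per the authors' deposited table).

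Cd5 and Cd6, a pair of scavenger-receptor family proteins that tune T cell receptor signals and lie 50.3 kb apart on chromosome 19, moved alike. Cd5 stood at 0.130 CPM in WT, 0.222 in SM and 0.651 in DM (DM versus WT 2.32, SE 0.69, adjusted p = 0.00939 per the authors' deposited table). Cd6 stood at 0.139, 0.252 and 0.661 CPM (2.25, SE 0.68, adjusted p = 0.0111 per the authors' deposited table). Both rose in DM versus WT and did not pass in the other comparisons, and against SM their unadjusted p values were 0.0317 and 0.0475 per the authors' deposited table. The adhesion receptor Cd2 (0.36, 0.374 and 0.708 CPM) and the co-stimulatory receptors Cd28 (0.251, 0.295 and 0.358 CPM), Ctla4 (0.114, 0.177 and 0.104 CPM) and Icos (0.422, 0.274 and 0.387 CPM) did not pass in any comparison. Foxp3, the regulatory T cell factor, stood at 0.125, 0.223 and 0.243 CPM and did not pass, with 2082 exon bases shared with neighbouring gene models.

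Another 3 genes rose both in SM and in DM versus WT. Il7r, the receptor for the survival cytokine IL-7, stood at 0.403 CPM in WT, 1.27 in SM and 1.21 in DM. It rose by 1.66 (SE 0.46, adjusted p = 0.00416) in SM versus WT and by 1.59 (SE 0.45, adjusted p = 0.00606) in DM versus WT per the authors' deposited tables. Its DM versus SM value was -0.07, with an interval from -0.97 to 0.83, so a difference of either sign of that size is not excluded by the spread.

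Ccr7, the receptor that guides T cells and dendritic cells to lymph nodes, stood at 0.202, 0.762 and 0.665 CPM. It rose by 1.91 (SE 0.58, adjusted p = 0.0113) in SM versus WT and by 1.71 (SE 0.57, adjusted p = 0.0249) in DM versus WT per the authors' deposited tables, with an interval of -1.31 to 0.92 in DM versus SM. Lck, the kinase that begins T cell receptor signalling, stood at 1.93, 3.87 and 5.13 CPM. It rose by 1.01 (SE 0.35, adjusted p = 0.0357) and 1.41 (SE 0.35, adjusted p = 0.0011) in those comparisons per the authors' deposited tables, with an interval of -0.32 to 1.14 in DM versus SM. Lck is the called gene with the highest level and was also called in both comparisons with WT when only rows averaging at least 1 CPM were tested.

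The remaining signalling and cytokine receptor genes did not pass. Zap70, the kinase recruited to phosphorylated CD3 chains, stood at 0.59 CPM in WT, 0.623 in SM and 1.15 in DM (0.97, SE 0.47, adjusted p = 0.177 in DM versus WT per the authors' deposited table). Lat, the adaptor that Zap70 phosphorylates, stood at 0.528, 0.674 and 1.17 CPM (1.15, SE 0.52, adjusted p = 0.138 per the authors' deposited table). Il2rb, a chain of the IL-2 and IL-15 receptors on T and NK cells, stood at 0.842, 1.24 and 1.67 CPM, and Il2rg at 5.52, 5.96 and 7.63 CPM.

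**Figure D4:**
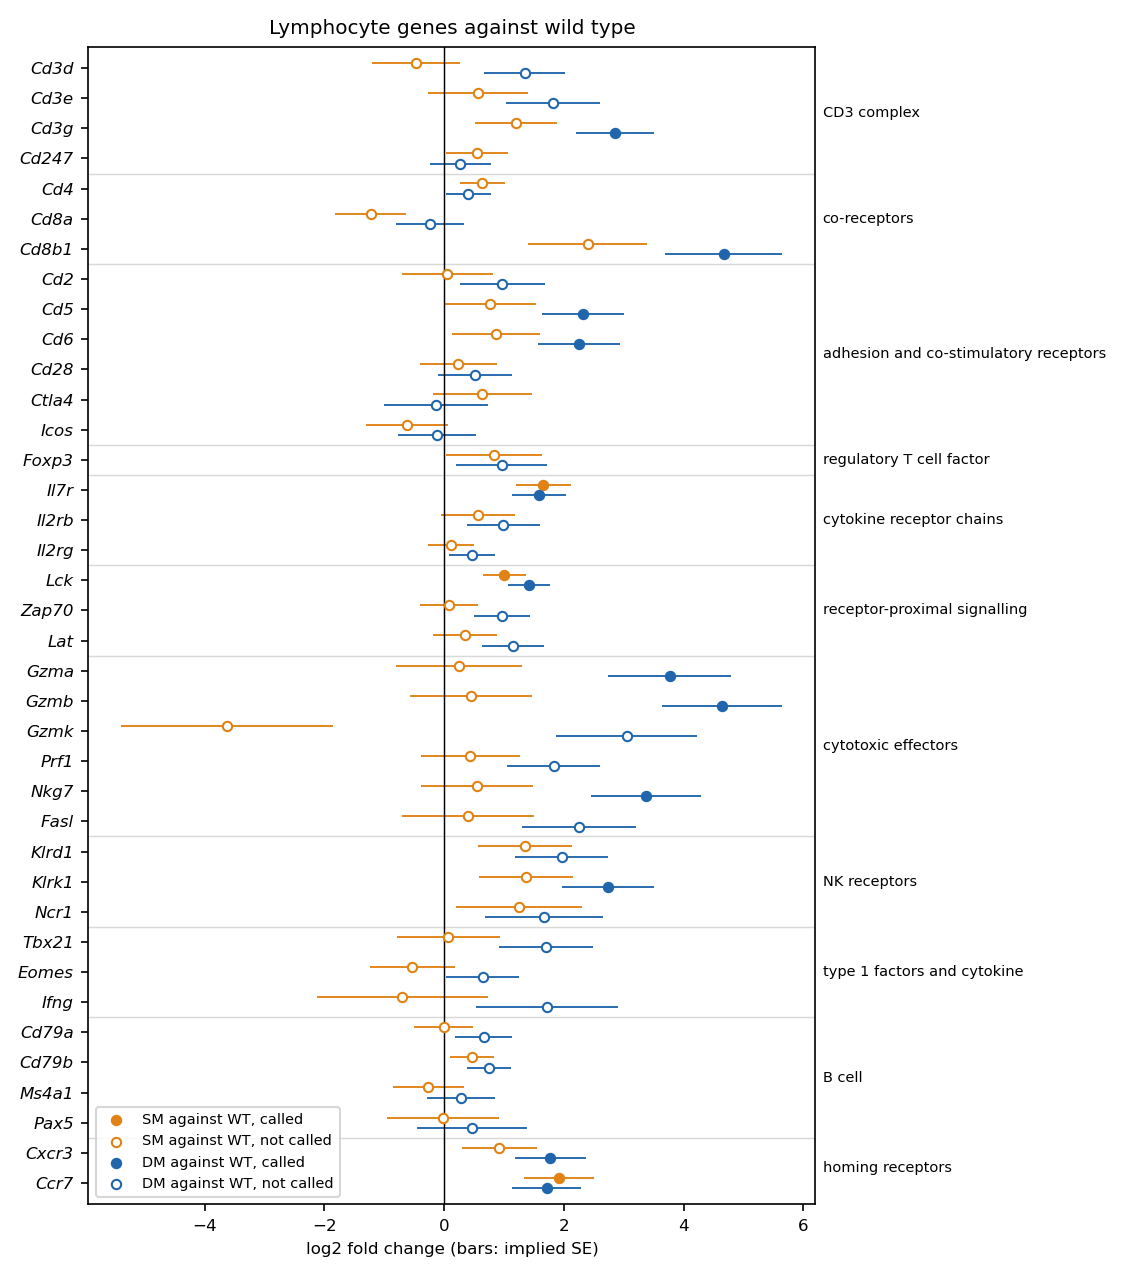
Log2 fold changes of SM and of DM versus WT per the authors' deposited tables for the 38 lymphocyte genes, with bars of 1 implied SE. Il7r, Lck and Ccr7 are called in both comparisons, and another 9 genes, among them Gzmb and Cd8b1, are called in DM versus WT and not in SM versus WT.

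NK receptor genes had their lowest level in WT. Their summed level was 0.439 CPM in WT, 1.12 in SM and 2.30 in DM over 3 genes. Klrk1, which also marks activated CD8 T cells, stood at 0.228, 0.589 and 1.53 CPM and rose by 2.74 (SE 0.77, adjusted p = 0.00509) in DM versus WT per the authors' deposited table. In SM versus WT its value was 1.37 (SE 0.78, adjusted p = 0.295) per the authors' deposited table. Klrd1, which encodes CD94 and lies 11.5 kb from Klrk1, stood at 0.153, 0.390 and 0.595 CPM (1.96, SE 0.78, adjusted p = 0.0756 in DM versus WT per the authors' deposited table). Ncr1, which encodes the NK receptor NKp46 and is the most NK-restricted of these, stood at 0.0581, 0.138 and 0.184 CPM, near the floor, and did not pass.

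The regulators and cytokine of type 1 responses stood below 1 CPM in each group. Tbx21, which encodes T-bet, stood at 0.200 CPM in WT, 0.210 in SM and 0.649 in DM (1.70, SE 0.78, adjusted p = 0.148 in DM versus WT per the authors' deposited table). Eomes stood at 0.216, 0.150 and 0.339 CPM. Ifng, which encodes interferon-gamma, was at 0.0675 CPM in WT, below the floor in SM and at 0.223 CPM in DM, and its value against WT was 1.72 (SE 1.19, adjusted p = 0.437) per the authors' deposited table. No gene of this role passed. Cxcr3, the receptor by which T and NK cells follow the interferon-induced chemokines, stood at 0.252, 0.477 and 0.862 CPM and rose by 1.78 (SE 0.59, adjusted p = 0.0249) in DM versus WT per the authors' deposited table.

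B cell genes passed in no comparison. Cd79b stood at 1.53 CPM in WT, 2.12 in SM and 2.58 in DM (0.75, SE 0.36, p = 0.0392, adjusted p = 0.182 in DM versus WT per the authors' deposited table). Cd79a stood at 0.941, 0.934 and 1.49 CPM (0.66, SE 0.47), and Ms4a1 at 0.587, 0.489 and 0.714 CPM (0.28, SE 0.56), in the same comparison of the authors' deposited table. Pax5, the transcription factor of B cell identity, ranked lowest of the 38 per kilobase in WT and DM, at 0.124, 0.122 and 0.172 CPM. The median log2 fold change of the 4 genes in DM versus WT was 0.56, beside 3.22 for the 6 cytotoxic genes, with no test of the difference.

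Further genes of the same cell types were counted from longer lists. Of 30 other T cell genes with a row, 7 rose (23.3%) and 1 fell in SM versus WT per the authors' deposited tables. In DM versus WT 12 rose (40%) and 0 fell. Of all rows, 7.87% rose and 6.09% fell in SM versus WT, and 7.55% rose and 5.92% fell in DM versus WT. Thy1, a surface glycoprotein of T cells that fibroblasts and neurons also carry, stood at 3.35 and 2.98 in these tables. Tcf7, a T cell transcription factor, stood at 1.79 and 1.57. The gene that fell in SM, Bcl11b, stood at -1.04 (adjusted p = 0.0145) and -0.77 (adjusted p = 0.0969) per the authors' deposited tables. Log2 fold changes were positive for 21 and negative for 8 of the 30 in SM versus WT. In DM versus WT they were positive for 24 and negative for 5. Of all rows, 41% and 41.9% were positive. Of 21 other cytotoxic and NK genes, 6 rose in SM (28.6%) and 12 in DM (57.1%) versus WT per the authors' deposited tables. The chemokine Ccl5 rose in both, by 2.43 in SM and 4.00 in DM, and did not pass in DM versus SM. That list also holds Tyrobp and Fcgr3, which macrophages express. Of 17 other B cell genes, 4 rose in SM (23.5%) and 2 in DM (11.8%) versus WT per the authors' deposited tables. The receptor genes Cd72 (1.69 and 1.50) and Tnfrsf13b (2.20 and 1.54) rose in both comparisons. In DM versus SM 0 genes of these 3 lists passed, where 0.0789% of all rows did, with medians of 0.43, 0.40 and 0.14. The genes of the receptor constant regions, such as Trac and Igkc, had no row under the symbols searched and could not be read.

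Genes that respond to interferon-gamma stood apart from the lymphocyte genes in size. Of 22 such genes 2 rose in SM versus WT (9.09%) and 20 in DM versus WT (90.9%) per the authors' deposited tables. That is beside 7.87% and 7.55% of all rows. Their summed level was 336 CPM in WT, 605 in SM and 2902 in DM. In DM versus SM 21 of 22 were higher at an unadjusted p below 0.05, beside 1.87% of all rows. Of the 22, 1 passed per the authors' deposited table, the GTPase Igtp (log2 fold change 4.64, adjusted p = 0.0231), where 0.0789% of all rows did. The CXCR3 ligands Cxcl10 (2.18 in SM and 5.05 in DM versus WT) and Cxcl11 (1.14 and 4.22) had larger values in DM per the authors' deposited tables, and Cxcl9 stood at -0.55 and 2.05. Their differences between DM and SM did not pass.

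Most of the pan-leukocyte and macrophage genes rose in both SM and DM, and most of the dendritic cell and neutrophil genes did not. The 10 pan-leukocyte genes rose in 10 of 10 cases in each comparison with WT per the authors' deposited tables and summed to 97.1, 313 and 273 CPM. Of all rows, 7.87% rose in SM versus WT and 7.55% in DM versus WT. Of 13 macrophage genes 12 rose in SM and 11 in DM, with sums of 219, 505 and 497 CPM. The medians in DM versus SM were 0.04 and -0.14 for these lists, beside 0.87 for the 38 lymphocyte genes. All genes of these lists averaged at least 1 CPM, so the levels compared are unlike. The 7 lymphocyte genes averaging at least 1 CPM had a median of 0.41 in DM versus SM, and the 31 below had 1.18. Of 8 dendritic cell genes 3 rose in each comparison with WT per the authors' deposited tables, and the 8 summed to 29.4, 27.5 and 31.9 CPM, of which Zbtb46 gave 22.5, 15.8 and 18.0. Of 7 neutrophil genes 3 rose in SM (42.9%) and 1 in DM (14.3%), with sums of 6.84, 13.4 and 10.2 CPM. As a check of the tissue, 8 kidney epithelial genes summed to 13440, 7101 and 7793 CPM. Of 12 hepatocyte genes 8 fell in each comparison with WT, and 1 rose in DM, per the authors' deposited tables, where 6.09% and 5.92% of all rows fell. They summed to 497, 229 and 209 CPM, of which Cyp2e1, which kidney tubules also express, gave 175, 115 and 67.5. Albumin (Alb) stood at 132 CPM in WT, 0.328 in SM and 1.03 in DM. The part of any of these cell types in the lymphocyte values was not tested.

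**Figure D5:**
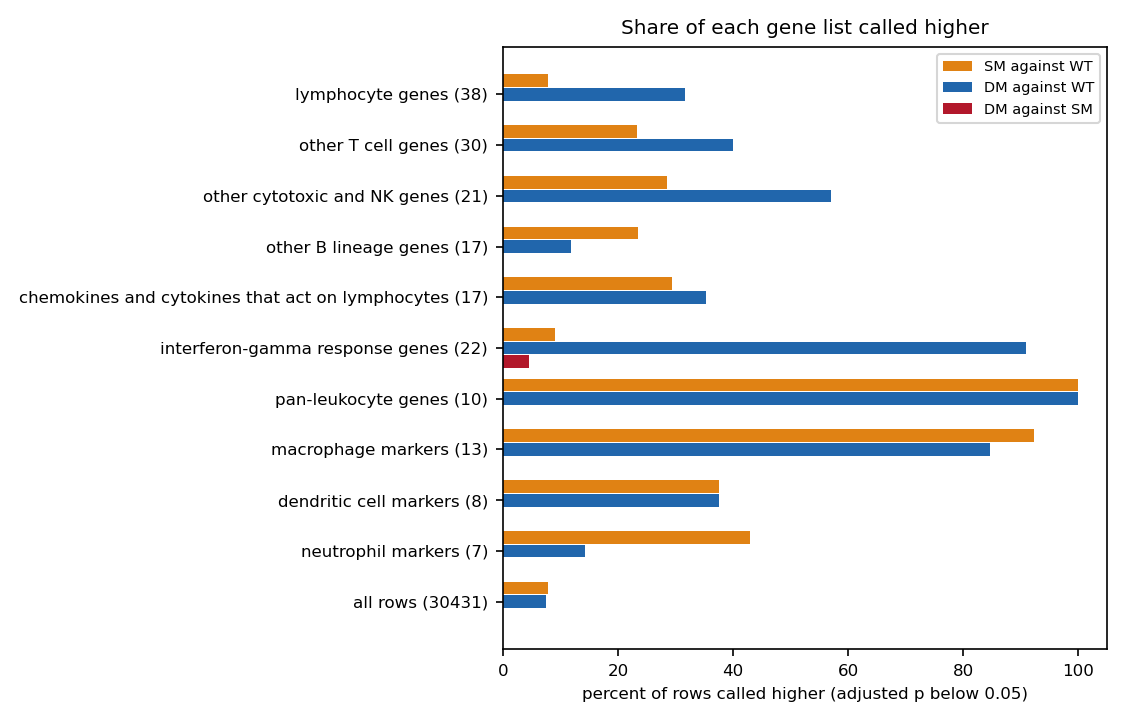
Percent of rows called higher (adjusted p below 0.05) in the 3 comparisons of the authors' deposited tables. Bars are for the lymphocyte genes, the longer lists and all rows. The lymphocyte genes stand at 7.89% in SM versus WT and 31.6% in DM versus WT, beside 7.87% and 7.55% of all rows. Macrophage genes stand at 92.3% and 84.6%.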

How the data were processed

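The 3 deposited tables are the authors' own comparisons. Per the file headers their columns are the log2 fold change, the average level in log2 CPM, the likelihood ratio score, the p-value and the false discovery rate. The tools listed in the submitters' processing notes are edgeR 3.2.4, featureCounts, Subread 1.4.6, Cufflinks, TopHat2 2.0.12 and bcl2fastq 1.8.4, with the build mm10, with roles not given in the sources used here. Frozen kidney gave total RNA for stranded libraries, per the labels' protocols. Checked on the files, the average was identical in the 3 tables, p was the chi-square tail of the score, adjustment covered all 30431 rows, and DM against SM was the difference of the other comparisons. Of the rows, 3888 stood at the floor.

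Group levels were computed in CPM from the deposited average and fold changes, weighting groups by 4, 3 and 3 libraries. The implied SE was the absolute log2 fold change over the square root of the score, which is approximate. Values were computed with pandas 2.3.3 and SciPy 1.17.1. Depth is unknown, so no counting interval is given. Exon lengths, positions and 3′ UTRs came from GENCODE M21 on GRCm38, and promoters and the microRNA from RefSeq on GRCm38.p6. The genes and lists were chosen with earlier results of these data known. All 38 genes are named, and from each other list at most the 4 genes with the lowest p in a comparison. Named besides are Bcl11b, as the gene of the other T cell list that fell, and Alb and Cyp2e1 to check the tissue. The labels do not say more of how the animals were related. The p-values rest on the spread between libraries as the authors' fit estimated it, and that estimate is not given. Alternatives were other thresholds, other sets of rows for the adjustment, a t distribution, a minimum fold change, a centring of the fold changes, and other readings of the average. No library could be left out, since tables hold none.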

Additional observations from a re-analysis of the deposited data

How the results depend on the processing

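The counts of lymphocyte genes called were 3 in SM against WT, 12 in DM against WT and 0 in DM against SM. They were the same with p adjusted over named rows, with a fold change of at least 2 required, and with fold changes centred on rows of high level, an alternative chosen after seeing the data. With the t distribution on 7 degrees of freedom the counts were 0, 0 and 0, beside 2.24%, 1.48% and 0% of all rows. At an adjusted p below 0.01 they were 1 (Il7r), 9 and 0, beside 9.12%, 8.53% and 0.023% of all rows, and below 0.10 they were 4, 14 and 0, beside 17.5%, 17% and 0.115%. Over rows averaging at least 1 CPM, which leaves 7 of the 38 genes to test, they were 1, 1 and 0, the gene being Lck. Rows that passed were then 11.9%, 10.9% and 0.0427% of all 30431 rows. Only 15135 of those rows were tested, so the shares of tested rows were larger than these. The direction of 2 genes that were not called turned under the centring, Cd79a to 0.045 and Pax5 to 0.035 in SM versus WT, and no other did. Reading the deposited average as a mean of log2 values moved 15 of 114 group levels by more than 1.5 times, those of Cd8b1, Gzma, Gzmb, Gzmk and Nkg7, and taking off the floor moved 12, those of Ctla4, Ncr1, Ifng and Pax5. No paired analysis was possible because the animal numbers are not shared between groups and the tables hold no libraries; leaving out single libraries was not run for the latter reason.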

Other observations

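Genes of lymph node stroma and developing lymphocytes were also read, with 10 of 12 listed genes in the tables. Of the 10, 2 rose (20%) in each comparison with WT per the authors' deposited tables, beside 7.87% of all rows in SM and 7.55% in DM. They were Foxn1, the thymic epithelial transcription factor that skin also expresses, and Madcam1, an adhesion molecule of mucosal vessels. Foxn1 stood at 0.567 CPM in SM and 0.646 in DM, and below the floor of the tables in WT. Madcam1 stood at 0.0545 CPM in WT, near that floor, 0.331 in SM and 0.268 in DM (log2 fold change 2.60 and 2.30). Of 17 chemokines and cytokines that act on lymphocytes, 5 rose (29.4%) and 2 fell in SM versus WT per the authors' deposited tables. In DM versus WT 6 rose (35.3%) and 1 fell. Of all rows, 6.09% fell in SM and 5.92% in DM versus WT. Ccl20, a chemokine that draws CCR6-bearing cells, rose in both, from below the floor in WT to 1.01 CPM in SM and 1.49 in DM. Cxcl12, the ligand of CXCR4, fell in both (423, 199 and 196 CPM, adjusted p = 3.76e-05 and 2.94e-05 per the authors' deposited tables).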
